A study of Rattus norvegicus with 4 samples.

Results

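The genes that give endothelial cells their identity were followed in 4 libraries of rat microvessels, together with markers of arterial, venous and lymphatic endothelium. The list was a named set of 40 symbols, chosen by name with earlier results of these data known. The deposited count table held 39 of them among 23608 entries, and 36 reached the expression minimum of 1 CPM (counts scaled to a common library size) in at least 1 library, among 13634 genes that did. Robo4 was not analysed here. The libraries were made from poly(A) RNA of wild-type primary vascular cells of rat subcutaneous soft connective tissue, kept as microvessels on stiff or soft extracellular matrix, with or without A83-01, a small molecule that blocks TGF-beta type I receptors. They are referred to as stiff with A83-01, stiff, soft with A83-01 and soft, 1 library each. The labels give no age, sex, stiffness value or dose. The study asked how matrix stiffness and A83-01 act on microvessels and on the turning of pericytes into myofibroblasts.

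Endothelial identity is held by ETS family transcription factors, above all ERG and FLI1, and by the SOXF factors SOX7, SOX17 and SOX18, which keep genes such as that of the junction protein VE-cadherin (Cdh5) active. Arterial cells add connexins 37 and 40 (Gja4, Gja5), venous cells are directed by the nuclear receptor COUP-TFII (Nr2f2), and lymphatic cells by the homeodomain factor PROX1. Blood flow induces the factors KLF2 and KLF4, which raise anticoagulant and vasodilator genes. TGF-beta and its receptors act on both endothelial and mural cells of the vessel wall.

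Depth was 32271844 to 33416200 counts per library, and the members took 0.503% of counts in stiff with A83-01, 0.234% in stiff, 0.414% in soft with A83-01 and 0.391% in soft. Levels are CPM scaled by trimmed mean of M-values (TMM) factors, which were 0.876 in stiff and 1.03 to 1.07 in the other libraries. With 1 library per group a ratio of 2 libraries compares those libraries and has no replicate check. Ratios are given with a 95% interval in parentheses, which covers counting error only. Whether the libraries came from separate cultures or animals is not in the labels. Both stiff libraries carry descriptions of another form than both soft ones, so a difference in how they were prepared cannot be told apart from stiffness. In such bulk RNA, fewer cells of a type and less RNA per cell cannot be told apart either. The mixture held more than endothelium. The 15 mural cell markers summed to 8858 CPM in stiff with A83-01, 10406 in stiff, 2473 in soft with A83-01 and 3179 in soft, and 11 fibroblast markers to 44269.8 CPM in stiff with A83-01, 127149.8 in stiff, 50339 in soft with A83-01 and 70442 in soft. Within the mural sum, Acta2 stood at 2428 CPM in stiff with A83-01, 3690.5 in stiff, 88.9 in soft with A83-01 and 271 in soft. Tagln stood at 1126, 2101, 38.3 and 130 CPM in the same order. Pdgfrb differed less, at 1469.5, 1591, 880.5 and 1239 CPM, so the sum is no measure of mural cell number. The keratinocyte markers Krt5, Krt14 and Dsg3 had 0 counts in every library.

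More members stood highest on stiff matrix with the inhibitor, and more stood lowest on stiff matrix without it, than in any other library. Of the 36 members, 23 had their highest level in stiff with A83-01, against 27.2% of all genes tested. In stiff without the inhibitor, 18 members had their lowest level, against 31.5% of all genes. The highest level of the other members lay for 2 in stiff (29% of all genes), 4 in soft with A83-01 (23.9% of all genes) and 7 in soft (19.9% of all genes). The lowest level lay for 4 in stiff with A83-01 (23.9% of all genes), 8 in soft with A83-01 (24.7% of all genes) and 6 in soft (20% of all genes). The median log2 ratio of the members was 0.75 for stiff with A83-01 against stiff, where that of all genes was 0.02. For soft with A83-01 against soft it was −0.001, against −0.0014 for all genes. For stiff against soft it was −0.22 without the inhibitor and 0.43 when both had the inhibitor, against 0.00 and 0.01 for all genes. Scaling to the pan-endothelial genes themselves takes this common difference away by construction, and the members' median was then −0.13 for stiff with A83-01 against stiff, −0.07 for stiff with A83-01 against soft with A83-01 and 0.03 for stiff against soft, each with its sign turned. In stiff without the inhibitor, where 18 of the 36 members were lowest, the fibroblast sum was the highest of the libraries, of which Col1a1 made 69475 CPM and Col3a1 52984 CPM. Of the 11 fibroblast markers, 6 were highest there and 3 (Pdgfra, Dcn and Dpt) lowest. Of 14 mural markers tested, 7 were highest in stiff with A83-01 and 6 in stiff. The part of these cells in the result was not tested. The plot of levels shows the members by role.

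**Figure D1:**
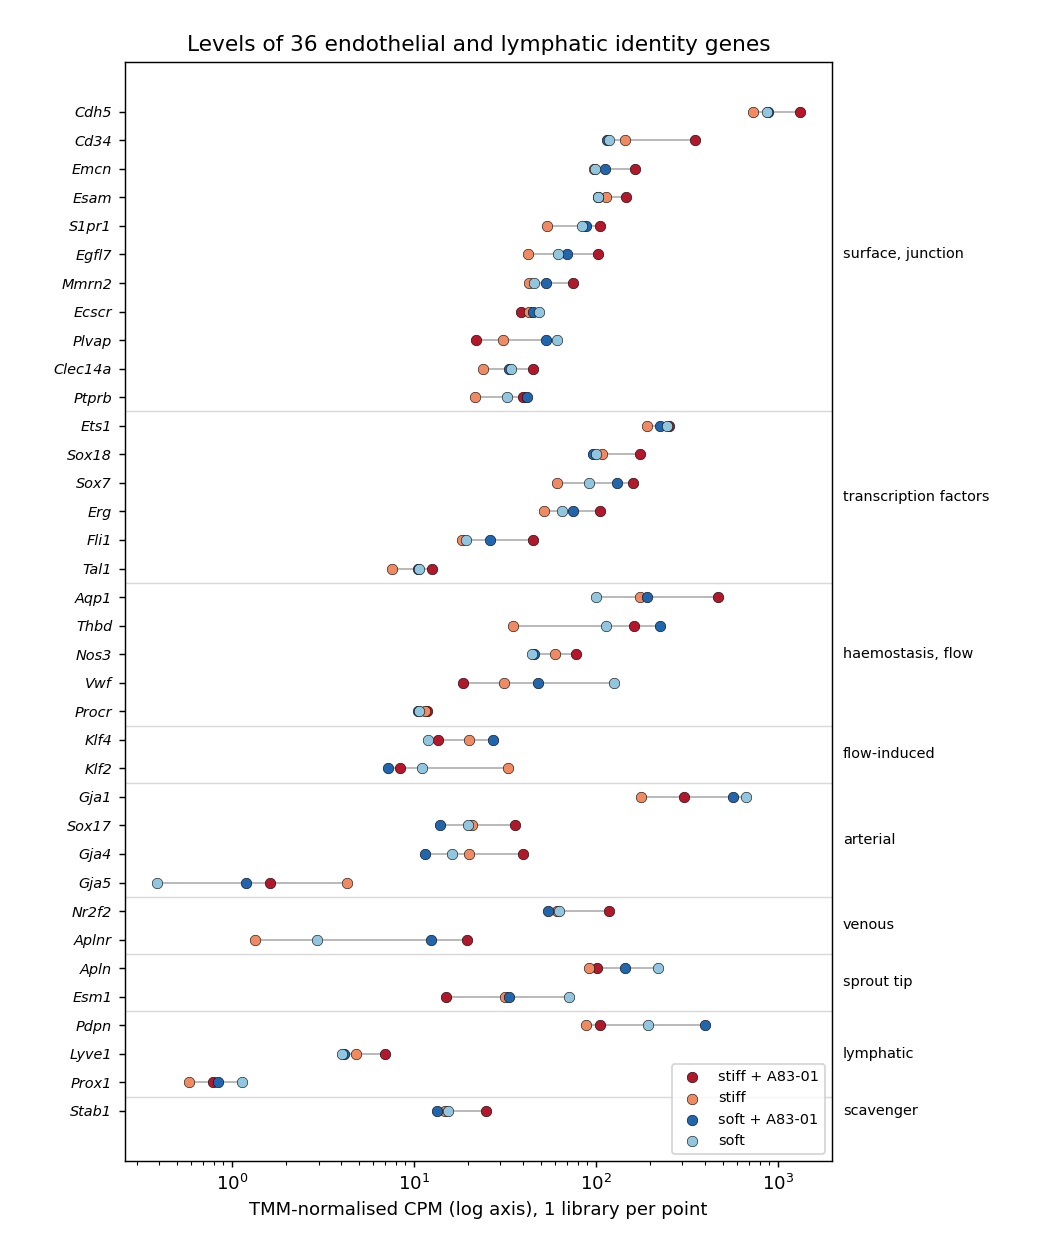
Level of each of the 36 members past the expression minimum (TMM-normalised CPM, log axis), 1 point per library, with members grouped by role down the page and a grey line from the lowest to the highest library. The point of stiff with A83-01 lies farthest right for 23 members and that of stiff farthest left for 18.

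At 2-fold with an interval excluding equality, 8 of the 36 members were higher in stiff with A83-01 than in stiff (7.8% of all genes tested) and 3 were lower (4.47% of all genes). On soft matrix, 4 members were higher with A83-01 (2.18% of all genes) and 2 were lower (2.44%). Between stiff and soft, 2 members were higher (5.33% of all genes) and 7 were lower (8.58%). Between stiff with A83-01 and soft with A83-01, 5 were higher (6.88%) and 4 were lower (6.72%). Under scaling by total counts alone, which moved the median of all genes in stiff with A83-01 against stiff to 0.31, 20 members were at least 2-fold higher in that pair (12.2% of all genes). Scaled so that 11 pan-endothelial members had a median ratio of 1, 2 were higher (2.34%) and 7 lower (35%).

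**Figure D2:**
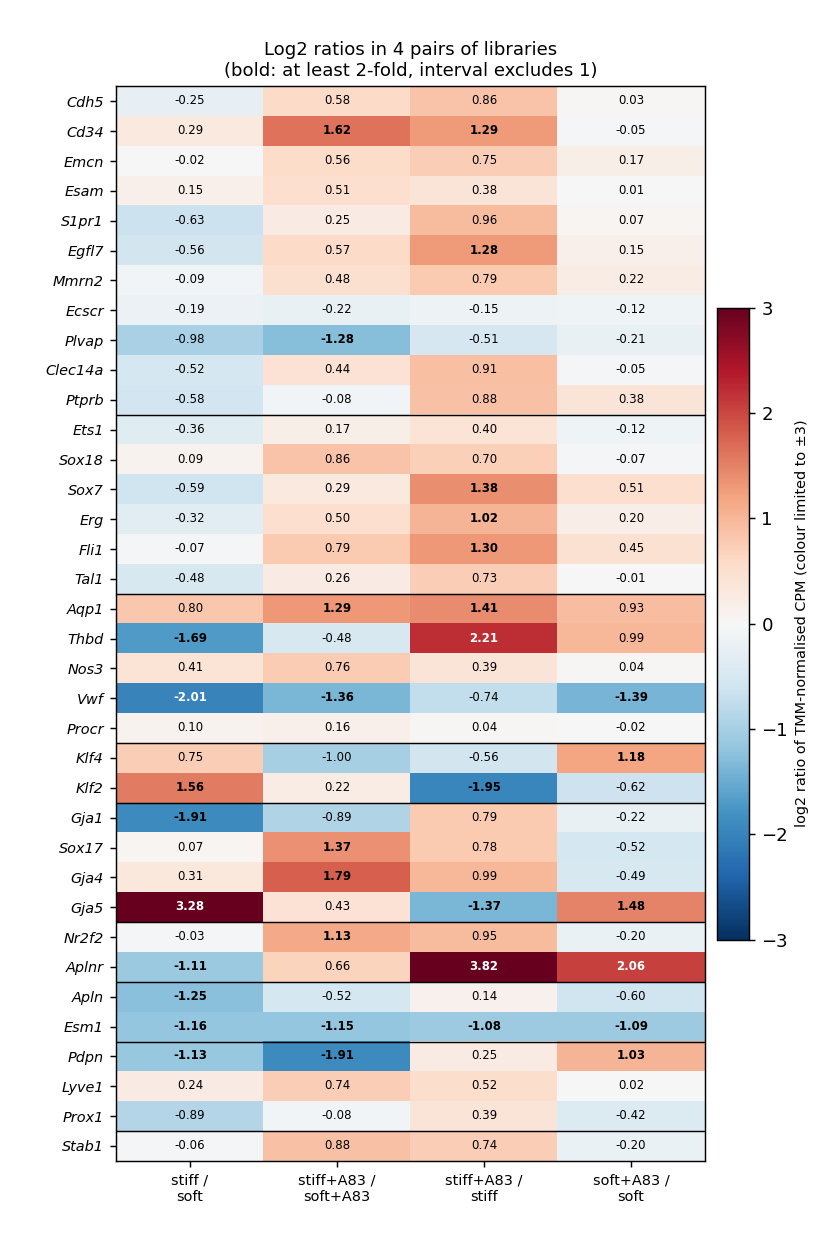
Log2 ratio of TMM-normalised CPM for the 36 members (rows, by role) in 4 pairs of libraries (columns), with colour limited to ±3 and bold type for ratios of at least 2-fold whose counting interval excludes 1. The pan-endothelial rows at the top are mostly red in the column of stiff with A83-01 over stiff and near 0 in the column of soft with A83-01 over soft.

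A test was possible only over all 4 libraries, 2 against 2, with the other factor in the model and 1 residual degree of freedom. That residual is the difference between both responses, so the test favours genes with like responses. In the edgeR quasi-likelihood test, with p-values adjusted by Benjamini-Hochberg over all genes, 4 of 36 members fell on stiff matrix (3.29% of all genes tested) and 0 rose (2.35%). They were Esm1 (log2 −1.16, SE 0.134, adjusted p = 0.0213), Vwf (log2 −1.69, SE 0.197, adjusted p = 0.0217), Plvap (log2 −1.13, SE 0.148, adjusted p = 0.0270) and Pdpn (log2 −1.52, SE 0.235, adjusted p = 0.0371), all with Benjamini-Hochberg adjustment in that quasi-likelihood test. All 4 were lower in both stiff libraries than in both soft ones. At unadjusted p of at most 0.05, 5 members were up (12.1% of all genes) and 7 down (13.2%), while DESeq2 called 2 up (4.21%) and 7 down (5.41%) and limma-voom 1 up (3.43%) and 5 down (4.56%). Without the inhibitor in the model, the quasi-likelihood test called 0 of the 4 (0.125% of all genes were down). For A83-01 the quasi-likelihood test called 0 members up (0% of all genes) and 0 down (0.044%), with 9 up (7.25%) and 3 down (6.04%) unadjusted. For the inhibitor, DESeq2 called Aplnr, Thbd, Aqp1 and Sox7 up, or 4 members (1.61% of all genes), and Klf2, Vwf and Esm1 down, or 3 members (1.79%). By limma-voom 0 members were up (0%) and 0 down (0.022%). The A83-01 ratios of members below are therefore values of these libraries that passed no quasi-likelihood test.

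VE-cadherin led the members in level. Per transcript length, Cdh5 was the most abundant member, with 284 FPKM in stiff with A83-01, 127 in stiff, 182 in soft with A83-01 and 179.6 in soft, where FPKM is the authors' length-normalised fragment level. In CPM, Cdh5 stood at 1325 CPM in stiff with A83-01, 729.6 in stiff, 886 in soft with A83-01 and 869.6 in soft. It was 1.82-fold higher (1.79 to 1.85) with A83-01 on stiff matrix and 1.02-fold higher (1.00 to 1.04) with A83-01 on soft matrix. Stiff with A83-01 thus lay above the other libraries, of which stiff was the lowest. Cd34, a sialomucin of capillary endothelium that fibroblasts also carry, stood at 353 CPM in stiff with A83-01, 145 in stiff, 115 in soft with A83-01 and 119 in soft. It was 2.44-fold higher (2.36 to 2.53) with the inhibitor on stiff matrix and 3.08-fold higher (2.97 to 3.19) on stiff than on soft when both had the inhibitor. Egfl7, a secreted regulator of vessel tube formation, stood at 103 CPM in stiff with A83-01, 42.4 in stiff, 69.3 in soft with A83-01 and 62.4 in soft. Its ratios were 2.44-fold higher (2.28 to 2.6) on stiff and 1.11-fold higher (1.05 to 1.18) on soft matrix with A83-01.

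A further 6 genes of this class were higher in stiff with A83-01 than in stiff, each by less than 2-fold. They encode the junction molecule Esam, the sialomucin endomucin (Emcn), the lectin Clec14a, the VE-cadherin phosphatase Ptprb, the sphingosine-1-phosphate receptor S1pr1 and the matrix protein Mmrn2, a ligand of Clec14a. Their log2 ratios lay between 0.38 and 0.96 in that pair and between −0.05 and 0.38 for A83-01 on soft matrix. For stiff against soft without the inhibitor they lay between −0.63 and 0.15. Ecscr, a regulator of endothelial migration, had log2 ratios of −0.22 with and −0.19 without the inhibitor for stiffness, and −0.15 and −0.12 for A83-01 on stiff and on soft matrix. With Ecscr, Plvap, which forms the diaphragms of fenestrae and caveolae, was lower in stiff with A83-01 than in stiff, where the other 9 genes of the class were higher. Plvap stood at 21.9 CPM in stiff with A83-01, 31.1 in stiff, 53.1 in soft with A83-01 and 61.6 in soft, and both stiff libraries lay below both soft ones. Plvap was 2.43-fold lower (2.23 to 2.64) on stiff than on soft when both had the inhibitor, and 1.98-fold lower (1.83 to 2.14) without it.

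Transcription factor genes that maintain the endothelial state had the same highest library as most surface and junction genes. Of 7 listed, 6 reached the expression minimum, and each of the 6 stood highest in stiff with A83-01. Sox7 stood at 160.0 CPM in stiff with A83-01, 61.2 in stiff, 131 in soft with A83-01 and 92.1 in soft. It was 2.61-fold higher (2.48 to 2.76) with A83-01 on stiff and 1.42-fold higher (1.36 to 1.49) on soft matrix. Erg stood at 106 CPM in stiff with A83-01, 52.3 in stiff, 74.9 in soft with A83-01 and 65.2 in soft, and was 2.03-fold higher (1.92 to 2.16) on stiff and 1.15-fold higher (1.09 to 1.22) on soft matrix. Both factors had their lowest level in stiff without the inhibitor. Fli1 stood at 45.5 CPM in stiff with A83-01, 18.4 in stiff, 26.4 in soft with A83-01 and 19.3 in soft, and was 2.47-fold higher (2.24 to 2.72) on stiff and 1.37-fold higher (1.23 to 1.51) on soft matrix with the inhibitor. For Fli1 the stiff and soft libraries without A83-01 did not differ beyond counting error, at 1.05-fold lower (0.932 to 1.18). Sox18, Ets1 and the haematopoietic and endothelial factor Tal1 had log2 ratios of 0.70, 0.40 and 0.73 for A83-01 on stiff matrix. On soft matrix the log2 ratios of these 3 were −0.07, −0.12 and −0.01. The Tal1 relative Lyl1 stayed under the minimum, with 31 counts in stiff with A83-01, 19 in stiff, 14 in soft with A83-01 and 16 in soft.

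Promoters of 6 members are shown because ETS factors act on endothelial promoters and the 2-fold ratios or the test turned on these genes. Erg, Egfl7 and Cd34 were at least 2-fold higher in stiff with A83-01 than in stiff. Plvap, Esm1 and Pdpn fell on stiff matrix in the quasi-likelihood test, which is a different comparison. Each sequence runs 5′ to 3′ along the gene's strand from 250 bases before to 50 after the RefSeq start in the assembly GRCr8, which is not the build of the count table. They lie on GRCr8 with Erg at chr11:48251517-48251816 (minus strand), Egfl7 at chr3:29805381-29805680 (plus strand), Cd34 at chr13:109008536-109008835 (plus strand), Plvap at chr16:18231230-18231529 (minus strand), Esm1 at chr2:46609003-46609302 (plus strand) and Pdpn at chr5:160918910-160919209 (minus strand). The table holds another start for Egfl7, whose window has neither word. Capitals mark the ETS-type words CAGGAA and CCGGAA, searched on both strands, so that they also appear as TTCCTG and TTCCGG.
Erg: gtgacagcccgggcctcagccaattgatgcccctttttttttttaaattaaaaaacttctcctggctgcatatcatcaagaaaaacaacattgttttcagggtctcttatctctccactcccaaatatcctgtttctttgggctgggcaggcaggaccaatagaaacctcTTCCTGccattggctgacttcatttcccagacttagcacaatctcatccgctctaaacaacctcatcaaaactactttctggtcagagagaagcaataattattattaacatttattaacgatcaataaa
Egfl7: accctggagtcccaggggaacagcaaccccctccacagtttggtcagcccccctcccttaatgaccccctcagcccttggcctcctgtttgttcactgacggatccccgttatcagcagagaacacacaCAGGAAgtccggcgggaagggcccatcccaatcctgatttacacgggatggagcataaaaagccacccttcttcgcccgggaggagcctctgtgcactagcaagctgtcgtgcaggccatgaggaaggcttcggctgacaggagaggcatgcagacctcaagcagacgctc
Cd34: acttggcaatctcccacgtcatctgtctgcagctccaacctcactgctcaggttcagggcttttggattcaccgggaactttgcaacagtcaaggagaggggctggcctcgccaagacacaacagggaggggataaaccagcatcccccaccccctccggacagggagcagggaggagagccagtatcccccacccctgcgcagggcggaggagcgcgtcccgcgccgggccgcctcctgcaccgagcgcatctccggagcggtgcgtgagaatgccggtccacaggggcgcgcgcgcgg
Plvap: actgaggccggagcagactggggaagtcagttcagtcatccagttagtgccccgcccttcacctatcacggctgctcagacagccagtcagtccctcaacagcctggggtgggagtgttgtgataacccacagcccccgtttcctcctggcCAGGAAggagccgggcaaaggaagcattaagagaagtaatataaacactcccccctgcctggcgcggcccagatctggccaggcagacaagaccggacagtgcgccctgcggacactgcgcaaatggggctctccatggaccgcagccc
Esm1: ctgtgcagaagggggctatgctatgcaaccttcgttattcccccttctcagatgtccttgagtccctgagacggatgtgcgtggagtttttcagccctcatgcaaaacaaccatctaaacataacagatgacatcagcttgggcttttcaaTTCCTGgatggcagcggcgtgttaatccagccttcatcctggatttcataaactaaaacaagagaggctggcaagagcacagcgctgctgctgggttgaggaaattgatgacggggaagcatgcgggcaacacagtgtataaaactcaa
Pdpn: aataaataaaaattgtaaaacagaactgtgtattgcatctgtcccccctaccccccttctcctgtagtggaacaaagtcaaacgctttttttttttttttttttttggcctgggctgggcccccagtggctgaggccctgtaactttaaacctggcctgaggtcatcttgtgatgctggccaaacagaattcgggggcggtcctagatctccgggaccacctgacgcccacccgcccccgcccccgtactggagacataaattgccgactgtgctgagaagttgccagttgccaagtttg
CAGGAA occurred 1 time each in the windows of Erg, Egfl7, Plvap and Esm1, at 80, 121, 99 and 99 bases before the start. It was not in the windows of Cd34 and Pdpn. Aqp1 was also at least 2-fold higher in stiff with A83-01 than in stiff. Its window, which is not shown, held neither CAGGAA nor CCGGAA. Of 25 members with a promoter in the RefSeq table, 14 held CAGGAA (56.0%), against 30.8% of 27457 genes. CCGGAA was held by 1 member (4%), against 16.5%, and the KLF-type word CACCC, also searched on both strands, by 15 (60.0%), against 56.8%. Genes with several starts in the table counted once. A match describes these letters and is no evidence of binding.

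Genes of haemostasis and vascular tone had no common order. Von Willebrand factor, Vwf, the platelet-tethering protein stored in endothelial granules, stood at 18.6 CPM in stiff with A83-01, 31.2 in stiff, 48.0 in soft with A83-01 and 126 in soft. It was 4.03-fold lower (3.75 to 4.33) on stiff matrix without the inhibitor and 2.58-fold lower (2.36 to 2.83) with it. With A83-01, Vwf was 1.68-fold lower (1.51 to 1.86) on stiff and 2.62-fold lower (2.47 to 2.77) on soft matrix. The untreated soft library thus held the most Vwf and the stiff library with inhibitor the least. Thrombomodulin, Thbd, the thrombin receptor that starts the anticoagulant protein C pathway, stood at 163 CPM in stiff with A83-01, 35.1 in stiff, 227 in soft with A83-01 and 114 in soft. Stiff without the inhibitor held the least. Thbd was 4.63-fold higher (4.33 to 4.96) with A83-01 on stiff and 1.99-fold higher (1.92 to 2.07) on soft matrix. Procr, the protein C receptor, differed by less than counting error in each of the 4 pairs, at 10.6 to 11.9 CPM. The water channel Aqp1 stood at 469 CPM in stiff with A83-01, 176 in stiff, 192 in soft with A83-01 and 101 in soft. Aqp1 was 2.66-fold higher (2.58 to 2.75) with A83-01 on stiff, 1.90-fold higher (1.82 to 1.98) with A83-01 on soft and 1.75-fold higher (1.67 to 1.83) on stiff than on soft without the inhibitor. For Aqp1 the stiffness difference missed the adjusted threshold by a narrow margin (log2 1.05, SE 0.188, quasi-likelihood test, adjusted p = 0.05016), and DESeq2 and limma-voom called it up. Nos3, the endothelial nitric oxide synthase, stood at 77.9 CPM in stiff with A83-01, 59.6 in stiff, 46.0 in soft with A83-01 and 44.8 in soft.

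The flow-induced factors were highest in other libraries than the factors above. Klf2 stood at 8.42 CPM in stiff with A83-01, 32.8 in stiff, 7.19 in soft with A83-01 and 11.1 in soft, so that the stiff library without inhibitor held the most. Klf2 was 2.95-fold higher (2.61 to 3.34) on stiff than on soft without the inhibitor, and 1.17-fold higher (0.984 to 1.39) when both had the inhibitor. With A83-01 it was 3.90-fold lower (3.42 to 4.45) on stiff and 1.55-fold lower (1.31 to 1.83) on soft matrix. Klf4 stood at 13.6 CPM in stiff with A83-01, 20.1 in stiff, 27.1 in soft with A83-01 and 11.9 in soft. It was 2.28-fold higher (2.02 to 2.57) with A83-01 on soft matrix but 1.48-fold lower (1.31 to 1.67) on stiff, and 1.68-fold higher (1.48 to 1.92) on stiff than on soft without the inhibitor. When both had the inhibitor, the log2 ratio of Klf4 on stiff against soft was −0.9953, just short of the 2-fold threshold. Thbd and Nos3 are known targets of KLF2. Thbd was highest in soft with A83-01, Nos3 in stiff with A83-01 and Klf2 in stiff. A link between Klf2 and either gene was not tested.

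**Figure D3:**
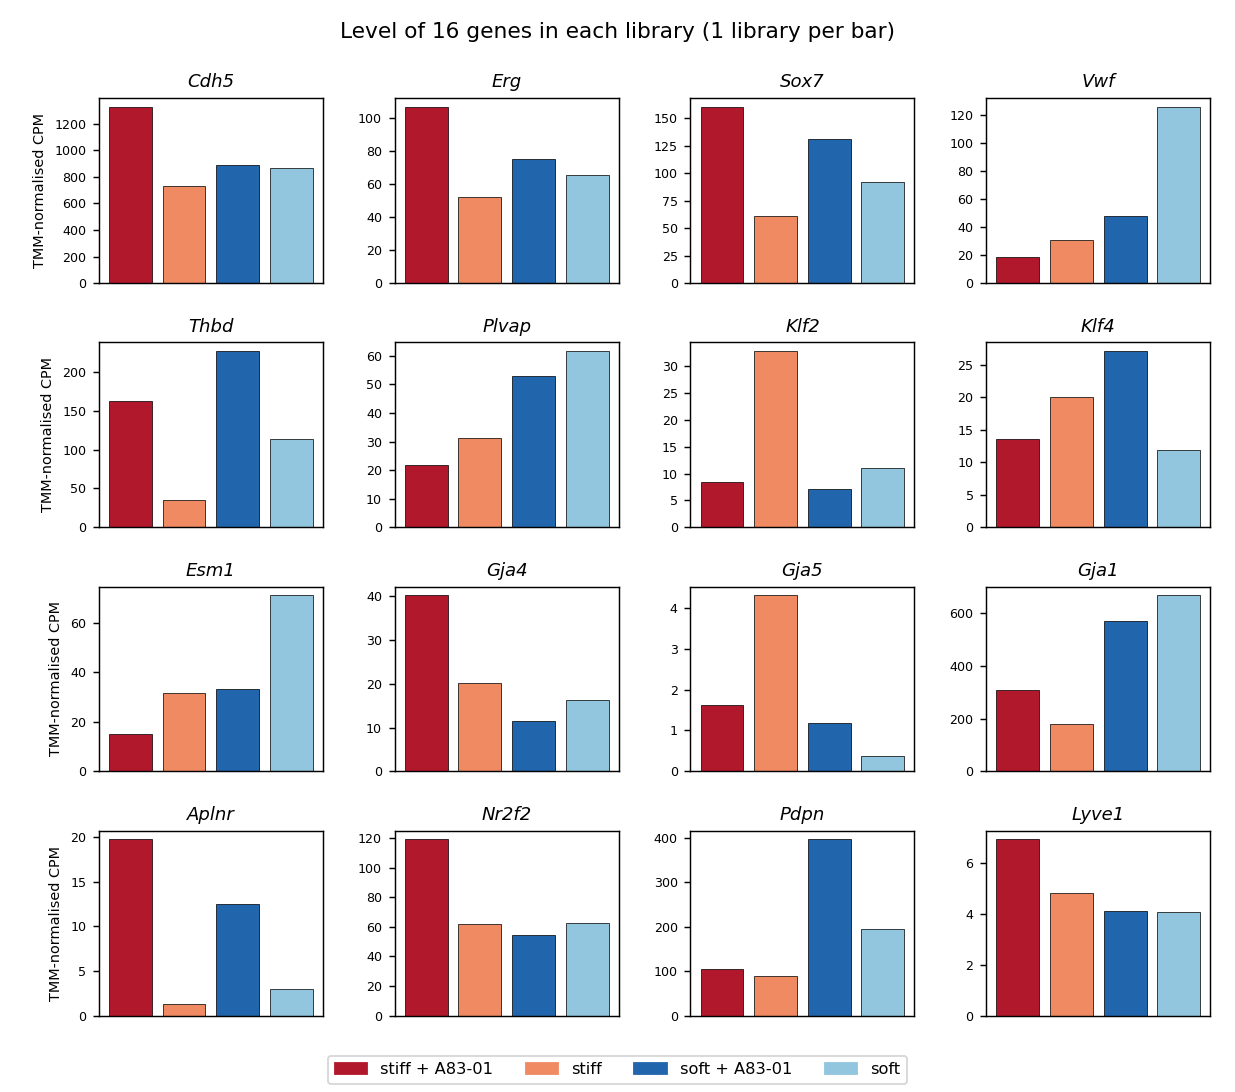
Level of 16 members in each library (TMM-normalised CPM, linear axes from 0), 1 library per bar in the order stiff with A83-01, stiff, soft with A83-01 and soft. Cdh5, Erg, Sox7, Gja4, Aplnr, Nr2f2 and Lyve1 are highest in stiff with A83-01, Klf2 and Gja5 in stiff, Thbd, Klf4 and Pdpn in soft with A83-01, and Vwf, Plvap, Esm1 and Gja1 in soft.

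Arterial members had no common order. Gja4, connexin 37, stood at 40.1 CPM in stiff with A83-01, 20.2 in stiff, 11.6 in soft with A83-01 and 16.3 in soft. It was 3.46-fold higher (3.10 to 3.89) on stiff than on soft when both had the inhibitor, and 1.24-fold higher (1.10 to 1.39) without it. With A83-01, Gja4 was 1.99-fold higher (1.80 to 2.19) on stiff and 1.41-fold lower (1.23 to 1.61) on soft matrix. Sox17, the SOXF factor of arterial endothelium, had the same order, with 36 CPM in stiff with A83-01, 20.9 in stiff, 13.9 in soft with A83-01 and 19.9 in soft. It was 2.6-fold higher (2.33 to 2.89) on stiff than on soft when both had the inhibitor and 1.05-fold higher (0.937 to 1.17) without it. Gja5, connexin 40, was scarce and ordered otherwise, with 58 counts in stiff with A83-01, 125 in stiff, 40 in soft with A83-01 and 13 in soft. Gja5 was 11.1-fold higher (6.24 to 21.4) on stiff than on soft without the inhibitor. With A83-01, Gja5 was 2.64-fold lower (1.92 to 3.67) on stiff and 3.07-fold higher (1.61 to 6.26) on soft matrix. Its widest interval rests on the 13 counts of the soft library. Gja1, connexin 43, which mural cells and fibroblasts express too, stood at 307 CPM in stiff with A83-01, 178 in stiff, 572 in soft with A83-01 and 668 in soft. Gja1 was 3.75-fold lower (3.64 to 3.87) on stiff matrix without the inhibitor and 1.86-fold lower (1.82 to 1.90) with it. Of the 11 fibroblast markers, 7 were higher on stiff than on soft when both had the inhibitor and 7 without it, with median log2 ratios of 0.23 and 0.52. Pdgfra, Dcn, Lum and Dpt were lower in both pairs. Of 14 mural markers tested, 13 were higher on stiff than on soft when both had the inhibitor and 13 without it. Their median log2 ratios were 1.82 and 1.01. The part of fibroblasts and mural cells in the Gja1 result was not tested.

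The venous members were both highest in stiff with A83-01. Nr2f2 stood at 119 CPM in stiff with A83-01, 61.6 in stiff, 54.5 in soft with A83-01 and 62.7 in soft. It was 2.19-fold higher (2.07 to 2.31) on stiff than on soft when both had the inhibitor, and 1.02-fold lower (0.956 to 1.09) without it, while A83-01 gave 1.93-fold higher (1.83 to 2.04) on stiff and 1.15-fold lower (1.08 to 1.23) on soft matrix. Aplnr, the apelin receptor of venous and sprouting endothelium, had the highest ratio of any member, with 704 counts in stiff with A83-01, 39 in stiff, 419 in soft with A83-01 and 99 in soft. In CPM Aplnr stood at 19.8 CPM in stiff with A83-01, 1.34 in stiff, 12.5 in soft with A83-01 and 2.96 in soft. It was 14.7-fold higher (10.7 to 20.9) with A83-01 on stiff and 4.23-fold higher (3.39 to 5.32) on soft matrix. Both libraries with the inhibitor thus lay above both without. Arterial and venous members were not set apart as groups. Of the 4 arterial and 2 venous genes, Gja4, Sox17 and Nr2f2 were at least 2-fold higher in stiff with A83-01 than in soft with A83-01, and none of the 3 was 2-fold apart in the other pairs.

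Genes of sprouting tip cells were highest in soft without the inhibitor. Esm1, a secreted proteoglycan of tip cells, stood at 15.0 CPM in stiff with A83-01, 31.8 in stiff, 33.4 in soft with A83-01 and 71.2 in soft. It was 2.24-fold lower (2.08 to 2.42) on stiff matrix without and 2.23-fold lower (2.01 to 2.47) with the inhibitor. With A83-01 it was 2.12-fold lower (1.90 to 2.36) on stiff and 2.13-fold lower (1.99 to 2.29) on soft matrix, so that each of the 4 ratios was near 2-fold. Esm1 was the only member at least 2-fold apart in all 4 pairs. Apln, the tip-cell ligand of Aplnr, stood at 102 CPM in stiff with A83-01, 92.2 in stiff, 145 in soft with A83-01 and 220.1 in soft. Apln was 2.39-fold lower (2.28 to 2.50) on stiff than on soft without the inhibitor and 1.43-fold lower (1.37 to 1.5) with it. Ligand and receptor were highest in different libraries, Aplnr in stiff with A83-01 and Apln in soft, and both were lowest in stiff.

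Of the lymphatic members, Prox1 and Mmrn1 were scarce in these libraries, while lymphatic genes outside the list differed in level. Of the latter, Flt4 stood at 44.2 CPM in stiff with A83-01, 31.2 in stiff, 38.65 in soft with A83-01 and 36.4 in soft. Reln stood at 2.95 CPM in stiff with A83-01, 1.31 in stiff, 2.45 in soft with A83-01 and 2.21 in soft. Flt4 and Reln were highest in stiff with A83-01, whereas Itga9, Foxc2 and Sema3d were highest in stiff. Foxc2 had 54 counts in stiff with A83-01, 144 in stiff, 22 in soft with A83-01 and 46 in soft. Of 9 such genes tested, 3 were highest in stiff with A83-01 (27.2% of all genes) and 3 in stiff (29%). A further 1 was highest in soft with A83-01 (23.9%) and 2 in soft (19.9%). Prox1, the factor that defines lymphatic endothelium, had 28 counts in stiff with A83-01, 17 in stiff, 28 in soft with A83-01 and 38 in soft. Its intervals included equality in 3 of the 4 pairs, and stiff against soft was 1.94-fold lower (1.07 to 3.67). Mmrn1, a lymphatic matrix protein also held by platelets, had 15 counts in stiff with A83-01, 2 in stiff, 6 in soft with A83-01 and 0 in soft, and Stab2, a hyaluronan scavenger receptor, had 0 counts in every library. A count of 0 allows up to 3 counts, which is 0.0842 to 0.103 CPM. Lyve1, the hyaluronan receptor of lymphatic vessels and of some macrophages, stood at 6.93 CPM in stiff with A83-01, 4.82 in stiff, 4.12 in soft with A83-01 and 4.06 in soft. Lyve1 was 1.44-fold higher (1.17 to 1.78) with A83-01 on stiff and 1.68-fold higher (1.36 to 2.09) on stiff than on soft when both had the inhibitor. Stab1, a scavenger receptor shared by sinusoidal endothelium, lymphatics and macrophages, stood at 24.8 CPM in stiff with A83-01, 14.8 in stiff, 13.4 in soft with A83-01 and 15.5 in soft. Of 11 macrophage and leukocyte markers in the table, the summed level was 116 CPM in stiff with A83-01, 94.5 in stiff, 191 in soft with A83-01 and 141 in soft, and 8 of the 11 were highest in soft with A83-01. Mrc1 was the 1 marker highest in stiff with A83-01, at 24.9 CPM there, 12.3 in stiff, 16.9 in soft with A83-01 and 15.8 in soft. In stiff with A83-01 against stiff, 4 of the 11 were at least 2-fold higher (7.8% of all genes) and 1 lower (4.47%). The part of macrophages in Lyve1 and Stab1 was not tested.

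Podoplanin, Pdpn, had the highest level of the lymphatic members, at 106 CPM in stiff with A83-01, 89.0 in stiff, 397 in soft with A83-01 and 195 in soft. It was 2.19-fold lower (2.09 to 2.29) on stiff matrix without and 3.76-fold lower (3.63 to 3.90) with the inhibitor, and 2.04-fold higher (1.98 to 2.10) with A83-01 on soft matrix. Pdpn is a lymphatic surface mucin that activated fibroblasts also express. With relative log expression factors from edgeR in place of TMM, Pdpn was no longer among the genes called for stiffness by the quasi-likelihood test. DESeq2 and limma-voom called Pdpn down. Per length it stood at 33.7 to 177 FPKM where Prox1 stood at 0.0534 to 0.128 FPKM. The fibroblast markers, as given beside Gja1, were split. Of 11, 7 were higher on stiff than on soft in each pair, while Pdgfra, Dcn, Lum and Dpt were lower in both pairs, as Pdpn was. The part of fibroblasts in the Pdpn result was not tested.

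The A83-01 response differed between the matrices for 11 members by at least 2-fold. The log2 difference of the response on stiff minus that on soft was 1 or more for 8 members (6.71% of all genes tested) and −1 or less for 3 (3.45%). The 8 were Aplnr at 1.76 (1.20 to 2.33), Gja4 at 1.48 (1.25 to 1.71), Cd34 at 1.33 (1.25 to 1.42) and Sox17 at 1.30 (1.08 to 1.53), followed by Thbd, Nr2f2, Egfl7 and Gja1 between 1.22 and 1.01. The 3 were Gja5 at −2.85 (−3.86 to −1.84), Klf4 at −1.74 (−1.99 to −1.50) and Klf2 at −1.33 (−1.63 to −1.03). Cdh5 stood at 0.83 (0.80 to 0.87) and Esm1 at 0.01 (−0.17 to 0.20). These intervals cover counting error, and with 1 library per group the differences were not tested.

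**Figure D4:**
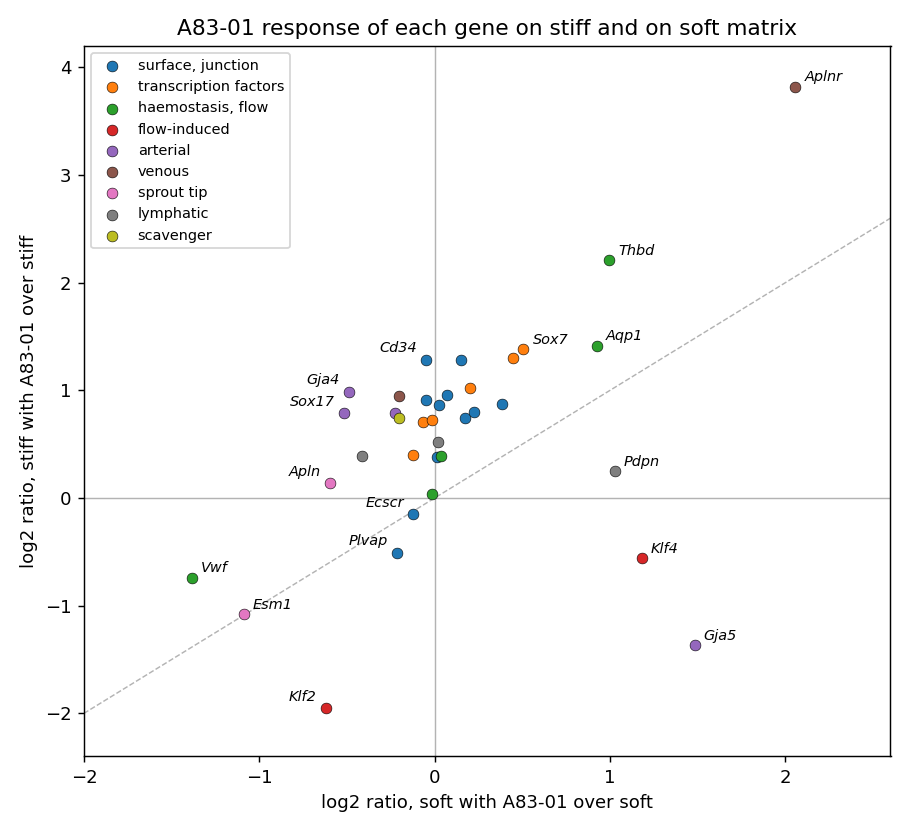
Log2 ratio with A83-01 over without it on stiff matrix (vertical) against soft matrix (horizontal) for the 36 members, coloured by role, with a dashed line of equal responses. Most members lie above 0 on the vertical axis and near 0 on the horizontal one, Aplnr lies at 3.82 and 2.06, and Klf4 and Gja5 lie below 0 on stiff and above 0 on soft.

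The members were also set against the endothelial genes as a group. The median log2 ratio of 11 pan-endothelial members (Cdh5, Esam, Erg, Fli1, Ecscr, Clec14a, Egfl7, Mmrn2, Ptprb, Sox7 and Sox18) was 0.88 for stiff with A83-01 against stiff, and their own ratios ran between −0.15 and 1.38. Relative to that median, Aplnr stood at 2.94, Thbd at 1.33 and Aqp1 at 0.54 on the log2 scale. Cdh5, Gja4, Sox17, Gja1 and Nr2f2 lay between −0.09 and 0.11. On the lower side, Klf2 stood at −2.83, Gja5 at −2.25, Esm1 at −1.96, Vwf at −1.62, Klf4 at −1.44, Plvap at −1.38 and Ecscr at −1.03. For stiff against soft without the inhibitor, the same reference had a median of −0.25. Relative to it, Gja5 stood at 3.53 and Klf2 at 1.81, while Vwf stood at −1.75, Gja1 at −1.65 and Thbd at −1.44.

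**Figure D5:**
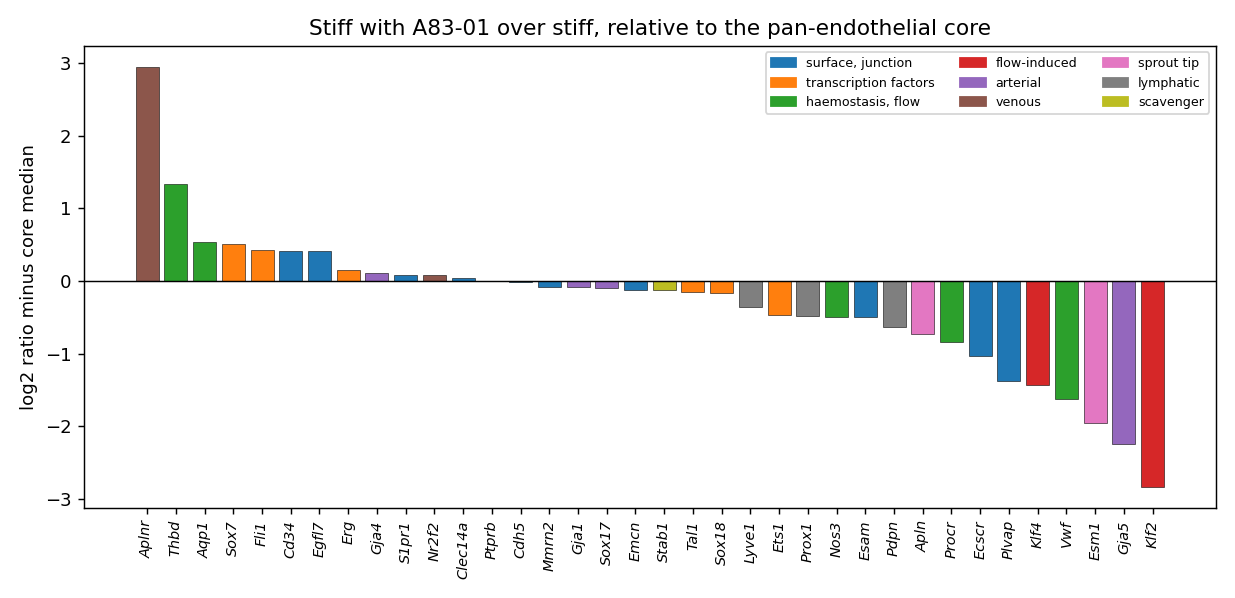
Log2 ratio of stiff with A83-01 over stiff for each of the 36 members, minus the median of 11 pan-endothelial members, as bars coloured by role and ordered from high to low. Aplnr is the highest at 2.94 and Klf2 the lowest at −2.83, with Gja5, Esm1, Vwf, Klf4, Plvap and Ecscr also below −1.

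Endothelial genes outside the list gave like values. Of 30 further pan-endothelial genes, 29 were tested, and 21 stood highest in stiff with A83-01 (27.2% of all genes tested). Their median log2 ratio was 0.95 for stiff with A83-01 against stiff, with 13 at least 2-fold higher (7.8% of all genes) and 0 lower (4.47%). It was 0.13 for soft with A83-01 against soft, with 0 higher (2.18% of all genes) and 0 lower (2.44%) at 2-fold. For stiffness the medians were −0.35 without and 0.49 with the inhibitor. The quasi-likelihood test called 0 of the 29 for stiffness (2.35% of all genes up and 3.29% down) and 0 for A83-01 (0% up and 0.044% down). Gpihbp1, the capillary anchor of lipoprotein lipase, stood at 174 CPM in stiff with A83-01, 31.2 in stiff, 99.0 in soft with A83-01 and 51.3 in soft. It was 5.56-fold higher (5.19 to 5.97) with A83-01 on stiff matrix. The homeobox factor Hhex was 3.22-fold higher (2.57 to 4.06) and the junction regulator Heg1 3.44-fold higher (3.16 to 3.75) in the same pair. Such values were not confined to endothelial genes. The mural markers Rgs5, Kcnj8, Notch3 and Abcc9 had log2 ratios of 1.40, 1.11, 1.06 and 0.98 in that pair. For A83-01 on soft matrix they lay between −0.08 and 0.15. Of 14 mural markers tested, 8 were above 0 in the stiff pair, with a median of 0.19. At 2-fold, 3 were higher (7.8% of all genes) and 1 lower (4.47%).

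Further arterial, venous and lymphatic genes were mixed in direction. Of 10 arterial genes tested, 1 was at least 2-fold higher and 1 lower in stiff with A83-01 than in stiff, with a median log2 ratio of 0.08. Of 5 venous genes, 1 was higher and 0 lower, with a median of 0.13. Of 9 lymphatic genes, 2 were higher and 2 lower, with a median of 0.45. Over all genes tested, 7.8% were higher and 4.47% lower in that pair. By the quasi-likelihood test for stiffness, 0 arterial genes, 1 venous gene up and 2 lymphatic genes up and 1 down passed adjustment. Of all genes, 2.35% were up and 3.29% down in that test. The adhesion molecule Vcam1, of inflamed venules, stood at 29.4 CPM in stiff with A83-01, 2.10 in stiff, 48.1 in soft with A83-01 and 21.9 in soft, and was 14-fold higher (10.8 to 18.4) with A83-01 on stiff matrix. Tspan7 stood at 68.6 CPM in stiff with A83-01, 51.7 in stiff, 11.6 in soft with A83-01 and 10.1 in soft, and rose on stiff matrix (log2 2.46, SE 0.151, adjusted p = 0.00746, edgeR quasi-likelihood test). The lymphatic chemokine gene Ccl21 had 85 counts in stiff with A83-01, 21 in stiff, 4 in soft with A83-01 and 0 in soft, and also rose (log2 4.72, SE 0.823, adjusted p = 0.0476, same test). The rise of Ccl21 rests on 0 and 4 counts in the soft libraries. Itga9, the other lymphatic gene called up, stood at 18.1 CPM in stiff with A83-01, 28.45 in stiff, 7.31 in soft with A83-01 and 13.4 in soft. Its stiffness difference was log2 1.19 (SE 0.161, adjusted p = 0.0283, same test). The factor gene Maf stood at 27.5 CPM in stiff with A83-01, 20.1 in stiff, 64.0 in soft with A83-01 and 68.4 in soft, and fell (log2 −1.49, SE 0.183, adjusted p = 0.0242, same test). Selp, the P-selectin of venules and platelets, had 4 counts in stiff with A83-01, 6 in stiff, 67 in soft with A83-01 and 6 in soft, and its 67 counts in soft with A83-01 were 11.2-fold higher (4.87 to 31.5) than in soft.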

How the data were processed

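Poly(A) RNA of 4 rat microvessel libraries was sequenced, 1 per group. The authors deposited whole-number read counts per gene and FPKM values for each library. The submitters' processing notes name HISAT2, edgeR and the assembly Rnor_6.0, without their roles. Groups came from the sample titles. Genes with at least 1 CPM in at least 1 library were tested on the deposited counts with edgeR 4.0.16 in R 4.3.3 (TMM factors, quasi-likelihood test, matrix and A83-01 as terms, Benjamini-Hochberg threshold 0.05). Ratios of 2 libraries used a prior count of 2 and a 95% Clopper-Pearson interval of the counts, which limits counting error only. DESeq2 1.42.0, limma 3.58.1, other scalings, filters, thresholds and the deposited FPKM were alternatives. Scripts were tested on simulated data. FPKM served for levels between genes.

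The members and gene lists were chosen with earlier results of these data known. Members past the minimum were described in every library when at least 2-fold apart in a pair with an interval excluding 1, called by a test, or among Cdh5, Erg, Prox1, Lyve1, Gja4, Gja5 and Nr2f2. Of other endothelial genes, the 8 with the largest nearer interval bound were named. Flt4, Reln, Itga9, Foxc2 and Sema3d were named outside that rule. Promoters came from RefSeq tables of GRCr8, matched by symbol for 25 members. Summed levels of the marker lists not given elsewhere, in the order stiff with A83-01, stiff, soft with A83-01 and soft, were 2.24, 7.33, 8.78 and 5.02 CPM for 7 mesothelial markers, 4.71, 3.92, 11.6 and 15.4 CPM for 6 blood cell and platelet markers, and 2.22, 2.20, 2.36 and 2.69 CPM for 5 keratinocyte markers.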

Additional observations from a re-analysis of the deposited data

Results flagged for a closer look

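For 3 members, both counting intervals excluded equality on opposite sides in a pair of like comparisons, with each ratio at least 1.5-fold. None of these differences was tested, since each group has 1 library. Gja5, connexin 40, had a log2 ratio of −1.37 for A83-01 on stiff matrix and 1.48 for A83-01 on soft matrix, on 58 counts in stiff with A83-01, 125 in stiff, 40 in soft with A83-01 and 13 in soft. Klf4 had a log2 ratio of −1.0 for stiff against soft when both had the inhibitor and 0.75 without it, on 484 counts in stiff with A83-01, 583 in stiff, 909 in soft with A83-01 and 399 in soft. Aplnr had a log2 ratio of 0.66 for stiff against soft when both had the inhibitor and −1.11 without it, on 704 counts in stiff with A83-01, 39 in stiff, 419 in soft with A83-01 and 99 in soft. The lower value of Aplnr rests on 39 counts in stiff and 99 in soft.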

How the results depend on the processing

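No tested difference and no ratio called at 2-fold changed sign. The check of single ratios covered only members that met the rule above for description in every library. For them, 17 uncalled ratios changed sign, 14 under pan-endothelial scaling, 2 with the deposited FPKM and 1 under total counts. Among the 17, Sox7 and Klf2 were −0.21 and −0.28 for stiff with A83-01 against soft with A83-01 under pan-endothelial scaling. For stiff against soft, Nr2f2 was 0.23 under that scaling and Sox17 −0.17 under total counts. Members outside the check turned in part as well. Under pan-endothelial scaling of stiff with A83-01 against stiff, Esam went from 0.38 to −0.50 and Sox18 from 0.70 to −0.17. Clec14a and S1pr1 kept their sign there. Of the counts of members, 33 moved by more than 1.5 times and 59 did not. Of single values of the members that met the rule, and of medians, 344 stayed and 179 moved under pan-endothelial scaling, total counts or the deposited FPKM. A further 21 were no longer called, mostly where a library was left out and no test remains. For stiffness, where 0 members were up and 4 down, total-count scaling gave 3 up and 7 down (621 and 1136 of all genes). DESeq2 gave 2 up (4.21% of all genes) and 7 down (5.41%), and limma-voom 1 up (3.43%). No filter gave 1 up (399 of all genes), as did a minimum of 1 CPM in every library (289 of all genes). Leaving the inhibitor out of the model gave 0 down (0.125% of all genes). For A83-01, where 0 were called either way, total-count scaling gave 8 up and 3 down (563 and 271 of all genes). DESeq2 gave 4 up (1.61% of all genes) and 3 down (1.79%). For members at least 2-fold apart, pan-endothelial scaling gave 4 higher and 4 lower for stiff against soft. It gave 2 higher and 7 lower for stiff with A83-01 against soft with A83-01. For stiff with A83-01 against stiff it gave 2 higher (2.34% of all genes) and 7 lower (35%). In the last pair, total-count scaling and the deposited FPKM each gave 20 higher (12.2% of all genes under total counts). At 1.5-fold the counts were 4 higher and 11 lower for stiff against soft, 11 higher for stiff with A83-01 against soft with A83-01, 21 higher for stiff with A83-01 against stiff, and 4 lower for soft with A83-01 against soft. At 4-fold they were 1 higher and 1 lower for stiff against soft, 0 and 0 for stiff with A83-01 against soft with A83-01, 2 higher and 0 lower for A83-01 on stiff, and 1 higher and 0 lower for A83-01 on soft. Where no share of all genes stands beside a count of members, as at 1.5-fold and 4-fold, that share was not determined. Those counts are therefore no result about the members. Apart from the thresholds, which set their own counts, the cause was not tested. Without any 1 library the model has no residual degree of freedom, and the stiffness value is the ratio of the remaining pair, from −2.01 to −1.36 for Vwf and −1.91 to −1.13 for Pdpn. No paired analysis was possible because each group has 1 library. Depth limits Prox1, Gja5, Lyl1 and Mmrn1 most.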
